A study of Mus musculus with 48 samples.

Results

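Expression of 10 genes of the NF-kappaB and TNF pathway was described in mouse sarcomas 3 days after 0 or 20 Gy of radiation, given with an isotype or an anti-PD-1 antibody. The genes are Tnf, Tnfrsf1b, Ikbke, Rela, Nfkb1, Nfkb2, Relb, Nfkbia, Tnfaip3 and Birc3. They were taken by symbol from the 36854 genes of the count table, and all 10 had enough counts to enter every fit. The genes were chosen by their place in the pathway with their CPM (counts per 1000000 counts of a library) in all 8 groups in view, and Ikbke was selected on its higher CPM in allografts that received both treatments than in their controls. Its values in allografts, and any comparison that uses them, are therefore given as a description, with no test. The difference between allografts given both treatments and their controls is given for all 10 genes in the same way.

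NF-kappaB is a family of dimeric transcription factors built from Rel proteins. In resting cells the dimers are held in the cytoplasm by IkappaB proteins such as the product of Nfkbia. Signals from TNF and related receptors activate IkappaB kinases, the inhibitor is degraded, and the dimers enter the nucleus to switch on inflammatory and survival genes. Among the genes they switch on are Nfkbia and Tnfaip3, whose products shut the signal off again. In tumours the pathway is active both in malignant cells and in infiltrating leukocytes, and DNA damage is one of its known triggers.

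The data are bulk RNA-seq counts from 48 tumours, 16 allografts and 32 primary tumours, all of the 129/SvJae background per the labels. Primary sarcomas arose in p53FL/FL mice 6 to 10 weeks old after Adeno-Cre, a virus that delivers Cre recombinase, and then 300 µg of the carcinogen MCA were injected into the gastrocnemius muscle. Allografts grew from 50000 cells of a single p53/MCA sarcoma line, 402230, placed with matrigel in the same muscle of syngeneic mice, so that all 16 allografts share the tumour cells of 1 line. Each tumour was treated at about 150 mm3. Every mouse, controls included, received 200 µg of antibody intraperitoneally, either muDX400 (murine anti-PD-1) or the isotype control. The hind limb then received 0 or 20 Gy and the tumour was harvested 3 days later. The 4 treatment groups of each kind (0 Gy with isotype, 0 Gy with anti-PD-1, 20 Gy with isotype, 20 Gy with anti-PD-1) held 4 allografts or 8 primary tumours each. The labels name each tumour by an animal identifier and no shared batch is stated.

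Libraries held 31.8 to 54.0 M counts (median 41.2), so that the member with the fewest counts, Tnf, still had 30 to 1270 counts per tumour. Levels are CPM scaled by TMM, edgeR's normalization for library composition. Differences are log2 fold changes ± SE from edgeR's quasi-likelihood test. A difference was called where the p adjusted by the Benjamini-Hochberg method over all genes tested was below 0.05. Overlap or its absence between groups is a description of the values, and the share of all genes without overlap was not counted. Markers of mesenchymal cells summed to 5594 to 59809 CPM, so that they were present in every tumour. Markers of skeletal muscle, the tissue around the tumour, summed to between 13.6 and 69684 CPM, and 2 primary tumours given 20 Gy stood apart at 69684 and 41081 CPM. Leaving out both changed no count of called members, while leaving out the first alone (replicate 4 of the 20 Gy anti-PD-1 group) took the call of Tnf from the anti-PD-1 dose comparison, as given below. In bulk tumours, fewer cells of a type and less RNA per cell cannot be told apart.

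After 20 Gy, 7 of the 10 genes were higher in primary tumours under either antibody. Of the 4 dimer subunit genes among the 10, 3 (Rela, Nfkb1 and Nfkb2) passed the test in none of the dose comparisons. Rel, a subunit gene outside the 10, was called higher in isotype primary tumours, as given below. The 7 were Tnf, Tnfrsf1b, Ikbke, Relb, Nfkbia, Tnfaip3 and Birc3 under both antibodies, at log2 fold changes of 0.56 to 2.35 with isotype and 0.58 to 1.39 with anti-PD-1. Of all genes tested, 7.85% were called higher with isotype and 6.06% with anti-PD-1. In allografts, of the 9 genes other than Ikbke, 4 were called higher with isotype, against 4.40% of all genes, and 2 with anti-PD-1, against 3.13%. None of the 10 genes in primary tumours, or of those 9 in allografts, was called lower in these 4 comparisons, which share no tumour, where 6.64% and 1.86% of all genes were called lower in primary tumours and 0.744% and 0.828% in allografts (isotype and anti-PD-1). Birc3 and Nfkbia passed in 4 of 4 and Tnf and Tnfrsf1b in 3. Relb and Tnfaip3 passed in both comparisons of primary tumours. The median log2 fold change was 0.69 and 0.50 over the 9 genes other than Ikbke in allografts and 0.69 and 0.67 over the 10 genes in primary tumours (isotype and anti-PD-1), where the median over all genes tested lay between -0.02 and 0.02.

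**Figure D1:**
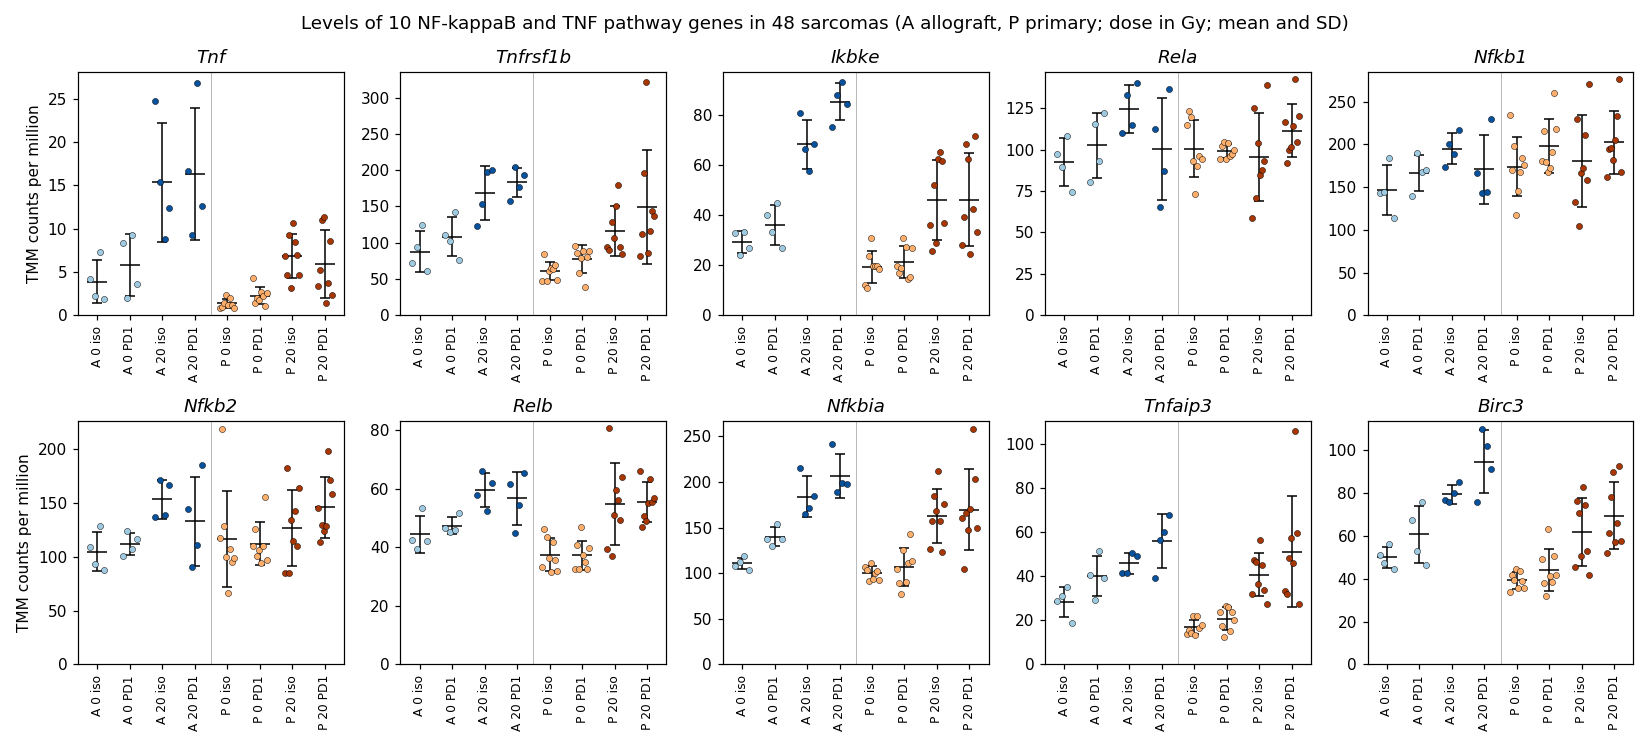
TMM-scaled CPM of the 10 genes in each of the 48 tumours, 1 panel per gene, by tumour kind and treatment group; points are tumours, and bars give the group mean and SD; the axis starts at 0. Tnf, Ikbke and Nfkbia sit higher in the groups given 20 Gy, at up to 26.8, 93.2 and 258 CPM, while Rela stays between 58.8 and 142.8 CPM across the groups.

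Tnf, on mouse chromosome 17 (chr17:35199381-35202007, minus strand, GRCm38), encodes the inflammatory cytokine that gives the pathway its name. It had the lowest level per kilobase of exon of the 10 genes in unirradiated isotype tumours, 2.36 CPM per kilobase in allografts and 0.824 in primary tumours. In primary tumours with isotype it ranged from 0.801 to 2.37 CPM (median 1.22) at 0 Gy and from 3.13 to 10.6 CPM (median 6.90) at 20 Gy. The ranges did not overlap. The log2 fold change was 2.35 ± 0.38 (edgeR adjusted p = 0.00013). With anti-PD-1, primary tumours ranged from 1.03 to 4.33 CPM (median 2.12) at 0 Gy and from 1.41 to 11.3 CPM (median 4.50) at 20 Gy. Here the groups overlapped, with 4 of 8 irradiated tumours above every unirradiated one, at 1.39 ± 0.37 (adjusted p = 0.0178). This call was lost without replicate 3 or replicate 4 of the 20 Gy anti-PD-1 group (adjusted p = 0.0514 and 0.0534), and in a fit of those 2 groups alone (edgeR adjusted p = 0.0664).

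In allografts with isotype, Tnf was at 4.15, 2.18, 7.27 and 1.88 CPM at 0 Gy and at 24.7, 15.4, 8.80 and 12.3 CPM at 20 Gy. All 4 irradiated allografts lay above all 4 controls, and the log2 fold change was 2.00 ± 0.53 (edgeR adjusted p = 0.0426). It passed with little margin: leaving out any 1 of 10 of the 16 allografts, including each of the 4 irradiated isotype tumours, took the adjusted p to between 0.0505 and 0.156. With anti-PD-1 it was at 8.38, 2.02, 9.22 and 3.58 CPM at 0 Gy and at 16.6, 9.25, 26.8 and 12.6 CPM at 20 Gy. These groups did not overlap either, but the difference of 1.51 ± 0.52 did not pass the test (edgeR adjusted p = 0.122).

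Tnfrsf1b (chr4:145213463-145246870, minus strand) encodes TNF receptor 2, which is found mainly on leukocytes and endothelial cells. In primary tumours with isotype it ranged from 47.5 to 84.6 CPM (median 62.2) at 0 Gy and from 84.2 to 179.7 CPM (median 100.3) at 20 Gy. All but 1 of the irradiated tumours lay above every control, at a log2 fold change of 0.94 ± 0.23 (edgeR adjusted p = 0.0062). With anti-PD-1 it ranged from 38.2 to 95.9 CPM (median 83.0) at 0 Gy and from 81.4 to 321 CPM (median 126.1) at 20 Gy, a log2 fold change of 0.97 ± 0.23 (adjusted p = 0.00998) with 6 of 8 tumours above the unirradiated range. In allografts with isotype it was at 72.0, 93.8, 123.96 and 61.1 CPM at 0 Gy, and 3 of the irradiated allografts were at 154, 197 and 200.1 CPM. The other irradiated allograft lay just under the highest control, and the log2 fold change was 0.97 ± 0.24 (edgeR adjusted p = 0.0296). In allografts with anti-PD-1 the difference was 0.78 ± 0.24 and did not pass (adjusted p = 0.0854), although all 4 irradiated allografts, at 158 to 204 CPM, lay above the 4 unirradiated ones, at 76.5 to 141.6 CPM.

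Ikbke (chr1:131254343-131279606, minus strand) encodes IKK-epsilon, a kinase related to TBK1 that acts in interferon induction and in NF-kappaB signalling. In allografts with isotype it was at 32.7, 24.2, 33.4 and 26.9 CPM at 0 Gy and at 81.0, 66.3, 57.5 and 68.3 CPM at 20 Gy, a log2 difference of 1.24. With anti-PD-1 it was at 39.9, 33.1, 45.0 and 26.7 CPM at 0 Gy and at 75.4, 88.2, 93.2 and 84.6 CPM at 20 Gy, a log2 difference of 1.25. Every irradiated allograft was thus above every unirradiated one, whichever antibody was given.

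Ikbke was noted for its values in allografts, and its values in primary tumours were in view as well. With isotype the primary tumours ranged from 10.9 to 31.0 CPM (median 19.5) at 0 Gy and from 25.7 to 65.3 CPM (median 44.5) at 20 Gy. Of the 8 irradiated tumours, 6 lay above every control, and the log2 fold change was 1.27 ± 0.25 (edgeR adjusted p = 0.000939). With anti-PD-1 they ranged from 14.6 to 30.9 CPM (median 19.2) at 0 Gy and from 24.5 to 71.5 CPM (median 40.9) at 20 Gy, a log2 fold change of 1.13 ± 0.25 (adjusted p = 0.00565), again with 6 of 8 above the unirradiated range. Both irradiated primary groups had a mean of 46.2 CPM. From the highest mean, the 8 groups ran from allografts given both treatments (85.3 ± 7.49 CPM, SD, n = 4) to primary controls (19.4 ± 6.33 CPM, SD, n = 8), and each group overlapped the next in that order. Ikbke shares exon sequence with 2 antisense genes, Gm28913 and Gm28914, and whether counting used strand is not given in the sources used here, so reads of the antisense genes may be included.

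Among the 4 subunit genes that are members, Relb alone passed the dose test, in primary tumours. Relb (chr7:19606217-19629438, minus strand) encodes the Rel subunit of the non-canonical pathway. It ranged from 31.4 to 46.4 CPM (median 35.95) at 0 Gy and from 37.2 to 80.7 CPM (median 53.7) at 20 Gy with isotype, where 6 of 8 irradiated tumours lay above the controls. The log2 fold change was 0.56 ± 0.13 with isotype (edgeR adjusted p = 0.00298) and 0.58 ± 0.13 with anti-PD-1 (adjusted p = 0.00448). With anti-PD-1 the groups did not overlap, at 32.7 to 46.9 CPM against 47.0 to 66.0 CPM. In allografts Relb differed by 0.45 ± 0.14 with isotype and 0.28 ± 0.14 with anti-PD-1, and neither passed (adjusted p = 0.0898 and 0.303).

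Rela (chr19:5637483-5648130, plus strand) encodes p65, the main activating subunit of the canonical dimer. Its primary group means were 100.6 and 95.4 CPM with isotype and 99.1 and 111.5 CPM with anti-PD-1 (0 and 20 Gy), log2 differences of -0.06 and 0.18. Its 4 allograft means lay between 92.4 and 124.5 CPM. With isotype all 4 irradiated allografts, at 110.2 to 140.1 CPM, lay above the 4 controls, at 74.2 to 108.5 CPM, and with anti-PD-1 the difference was -0.01. The isotype difference of 0.46 ± 0.22 did not pass (edgeR adjusted p = 0.289).

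Nfkb1 (chr3:135584655-135691547, minus strand) and Nfkb2 (chr19:46304320-46312385, plus strand) encode the precursors p105 and p100, which are processed to the p50 and p52 subunits. Nfkb1 differed by 0.07 ± 0.16 and 0.04 ± 0.16 in primary tumours and by 0.44 ± 0.19 and 0.06 ± 0.19 in allografts (isotype and anti-PD-1). Nfkb2 differed by 0.14 ± 0.18 and 0.39 ± 0.18 in primary tumours and by 0.58 ± 0.21 and 0.27 ± 0.21 in allografts. The lowest edgeR adjusted p among these 8 differences was 0.142, for Nfkb2 in isotype allografts, where the groups did not overlap (87.6 to 129 CPM against 136.8 to 172 CPM). For Nfkb1 in primary tumours the 95% intervals ran from -0.24 to 0.37 and from -0.26 to 0.34. Nfkb2 overlaps Psd and AC114539.1 on the opposite strand, with the same uncertainty of counting as for Ikbke.

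**Figure D2:**
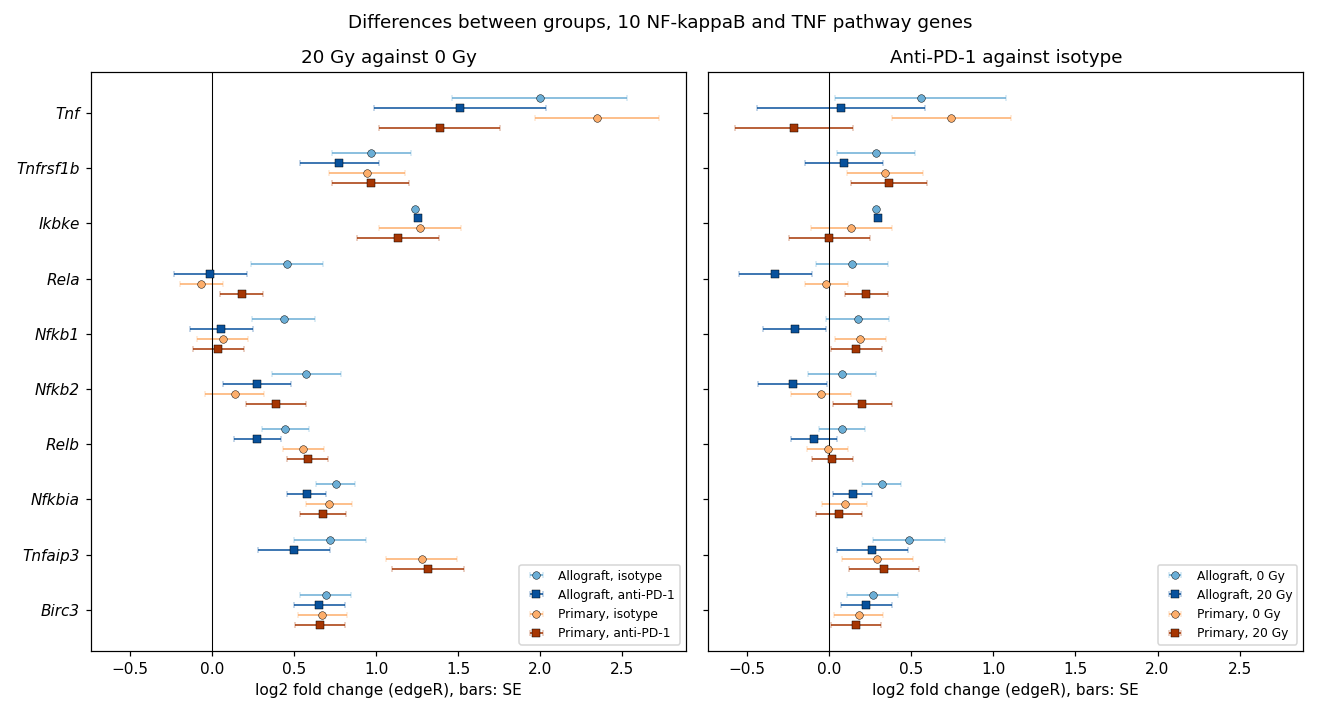
Log2 fold changes of the 10 genes (points) with SE (bars) from edgeR, with dose comparisons on the left and antibody comparisons on the right, each for both kinds of tumour; Ikbke in allografts is shown without SE. Dose differences of Tnf, Ikbke, Nfkbia and Birc3 lie above 0 in both kinds, from 0.58 to 2.35, while antibody differences lie between -0.33 and 0.74 and none was called.

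Of the genes that encode inhibitors and brakes of the pathway, Nfkbia was called higher after 20 Gy in 4 of 4 dose comparisons and Tnfaip3 in the 2 of primary tumours. Nfkbia (chr12:55489410-55492647, minus strand) encodes IkappaB-alpha, which binds the dimers and is itself switched on by them. It had the highest level per kilobase of the 10 genes in all 8 groups, 68.8 CPM per kilobase in allograft controls and 62.3 in primary controls. In allografts with isotype it was at 108.4, 111.9, 118.5 and 104.03 CPM at 0 Gy and at 215, 165, 172 and 184 CPM at 20 Gy. With anti-PD-1 it was at 137.6, 129.8, 154 and 137.2 CPM at 0 Gy and at 241, 189, 199 and 197 CPM at 20 Gy. No irradiated allograft was as low as any unirradiated one. The log2 fold changes were 0.75 ± 0.12 (edgeR adjusted p = 0.00267) and 0.58 ± 0.12 (adjusted p = 0.0164), the second lost without replicate 2 or replicate 4 of the 0 Gy anti-PD-1 group (adjusted p = 0.0568 and 0.0578).

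In primary tumours Nfkbia ranged from 91.1 to 111.7 CPM (median 101.4) at 0 Gy and from 123.1 to 212 CPM (median 163) at 20 Gy with isotype. The groups did not overlap, and the log2 fold change was 0.71 ± 0.14 (edgeR adjusted p = 0.000847). With anti-PD-1 it ranged from 76.9 to 143.1 CPM (median 107.9) at 0 Gy and from 104.5 to 258 CPM (median 163) at 20 Gy, with 7 of 8 irradiated tumours above the unirradiated range, at 0.68 ± 0.14 (adjusted p = 0.00328).

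Tnfaip3 (chr10:19000910-19015657, minus strand) encodes A20, a ubiquitin-editing enzyme that terminates signalling from TNF receptors. In primary tumours with isotype it ranged from 13.6 to 21.8 CPM (median 16.1) at 0 Gy and from 27.5 to 56.6 CPM (median 40.8) at 20 Gy, at 1.28 ± 0.22 (edgeR adjusted p = 0.000219). With anti-PD-1 it ranged from 12.6 to 26.7 CPM (median 21.9) at 0 Gy and from 27.3 to 105.8 CPM (median 47.3) at 20 Gy, at 1.32 ± 0.22 (adjusted p = 0.000461). Irradiated and unirradiated primary tumours did not overlap under either antibody. In allografts with isotype it was at 28.9, 31.0, 34.9 and 18.7 CPM at 0 Gy and at 41.7, 41.7, 50.8 and 49.3 CPM at 20 Gy. The allograft groups did not overlap with isotype, but the differences of 0.72 ± 0.22 and, with anti-PD-1, 0.50 ± 0.22 did not pass (edgeR adjusted p = 0.0743 and 0.223).

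Birc3 (chr9:7848699-7873186, minus strand) encodes cIAP2, a ubiquitin ligase of the TNF receptor complex that restrains cell death. Its dose difference was nearly the same in the 4 comparisons, 0.66 to 0.69 on the log2 scale. In allografts with isotype it was at 51.2, 47.5, 56.3 and 44.6 CPM at 0 Gy and at 76.5, 75.6, 79.9 and 85.2 CPM at 20 Gy, with no overlap, at 0.69 ± 0.16 (edgeR adjusted p = 0.0197). With anti-PD-1 it was at 67.2, 52.8, 75.9 and 46.6 CPM at 0 Gy and at 75.6, 109.6, 101.7 and 91.2 CPM at 20 Gy, at 0.66 ± 0.16 (adjusted p = 0.0315), with 3 of 4 irradiated allografts above the unirradiated range. In primary tumours it differed by 0.67 ± 0.15 with isotype (adjusted p = 0.00288) and by 0.66 ± 0.15 with anti-PD-1 (adjusted p = 0.00729), and 7 and 4 of 8 irradiated tumours lay above the unirradiated range.

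The calls in allografts rest on few tumours. With isotype, of the 9 genes other than Ikbke only Nfkbia was called when replicate 1, 2 or 4 of the 0 Gy isotype group or replicate 3 or 4 of the 20 Gy isotype group was left out. The adjusted p of Birc3 was then 0.0579 to 0.0944 and that of Tnfrsf1b 0.0866 to 0.116. With anti-PD-1 the call of Birc3 was lost without replicate 2 or 4 of the 0 Gy anti-PD-1 group, replicate 2 or 3 of the 20 Gy anti-PD-1 group, replicate 2 of the 0 Gy isotype group or replicate 3 of the 20 Gy isotype group (adjusted p = 0.0512 to 0.124). With the first digit of the animal identifier as a covariate, 1 of these 9 genes (Nfkbia) was called in isotype allografts. There that digit is 5 in all 4 controls and 4 in 3 of the 4 irradiated tumours. Over all alternative fits the isotype differences ran from 1.69 to 2.50 for Tnf, 0.82 to 1.19 for Tnfrsf1b and 0.63 to 0.84 for Birc3. For dose in anti-PD-1 allografts, edgeR called 0 of the 9 genes when fitted to those 2 groups alone, where Nfkbia and Birc3 kept differences of 0.58 and 0.66 (adjusted p = 0.128 and 0.200), and DESeq2, fitted to all 16 allografts, called 4 (Birc3, Nfkbia, Tnf and Tnfrsf1b). In a fit of all 48 tumours, Tnfrsf1b and Birc3 lost their calls in isotype allografts (edgeR adjusted p = 0.105 and 0.0634), and Nfkbia and Birc3 lost theirs in anti-PD-1 allografts (0.108 and 0.104). Tnfrsf1b also lost its call in a fit of the 2 isotype groups alone (0.0624). In primary tumours with isotype all 7 calls held whichever tumour was left out.

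Promoter sequences of the 2 feedback inhibitors are shown because NF-kappaB dimers are known to act on both genes through kappaB motifs. Sequences are from RefSeq for GRCm38.p6, the minus strand read 5′ to 3′ up to the base before the annotated start, with matches to the kappaB motif in capitals. They cover chr12:55492648-55492767 for Nfkbia and chr10:19015411-19015540 for Tnfaip3.
Nfkbia: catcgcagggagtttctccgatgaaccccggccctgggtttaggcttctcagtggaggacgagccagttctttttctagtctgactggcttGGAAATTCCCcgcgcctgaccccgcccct
Tnfaip3: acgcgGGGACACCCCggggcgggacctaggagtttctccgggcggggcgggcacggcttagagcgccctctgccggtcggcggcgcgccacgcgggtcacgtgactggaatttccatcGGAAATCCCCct
The match in Nfkbia begins 29 bases before the start, and in Tnfaip3 1 match begins 12 bases before a start, the other near the left end of the window. That start lies inside the annotated gene, which begins further upstream at base 19015657, and the window of the other Tnfaip3 start held no match. The 10-letter kappaB motif was searched on both strands in the 250 bases before each start, and 7.25% of 32851 promoters of that length hold it. RefSeq promoters were found for 8 of the 10 genes. Nfkb2 held matches as well, GGGAATTCCC 39 bases before its first start among them, although its counts did not pass the dose test. The windows of Ikbke, Tnfrsf1b, Birc3, Tnf and Rela held no match, and a match is a description of the letters only.

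Tumours given both treatments were compared with isotype controls at 0 Gy. These comparisons share their groups with the dose comparisons, so the values are given side by side and add no separate evidence. In allografts the log2 differences were 2.07 for Tnf, 1.54 for Ikbke, 1.06 for Tnfrsf1b, 0.98 for Tnfaip3, 0.92 for Birc3 and 0.90 for Nfkbia. Relb, Nfkb2, Nfkb1 and Rela stood at 0.36, 0.35, 0.23 and 0.13. For Ikbke, at the value that led to its choice, the 4 treated allografts ranged from 75.4 to 93.2 CPM and the 4 controls from 24.2 to 33.4 CPM.

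In primary tumours given both treatments, 7 of 10 genes were higher and none lower, against 8.78% and 4.98% of all genes. Tnf differed by 2.13 ± 0.38, Tnfaip3 by 1.61 ± 0.22, Tnfrsf1b by 1.31 ± 0.23, Ikbke by 1.27 ± 0.25 and Birc3 by 0.84 ± 0.15, with edgeR adjusted p between 4.41e-05 and 0.00113. Nfkbia differed by 0.77 ± 0.14 and Relb by 0.58 ± 0.13 (adjusted p = 0.0005 and 0.00254). Tnfaip3, Relb and Birc3 did not overlap between these groups, a description for which the share over all genes was not counted. The other 3 genes, Nfkb2, Nfkb1 and Rela, stood at 0.34, 0.23 and 0.16 with adjusted p of 0.206 or more.

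Anti-PD-1 against isotype at one dose gave no called member in any of the 4 comparisons, nor any called gene at all (0%) by edgeR. By DESeq2, 0 members and 0, 0, 3 and 5 genes were called (allografts at 0 and 20 Gy, then primary tumours at 0 and 20 Gy). Of the members' 18 values in allografts, Ikbke left out, 2 had an unadjusted p below 0.05, Nfkbia at 0.32 ± 0.12 and Tnfaip3 at 0.49 ± 0.22, both at 0 Gy. Of the 20 in primary tumours, 1 did, Tnf at 0.74 ± 0.36, also at 0 Gy. Over all genes tested, unadjusted p below 0.05 was found for 299 and 682 of 17746 genes in allografts and 412 and 1443 of 17770 in primary tumours (0 and 20 Gy). The lowest adjusted p among the members was 0.682 in allografts and 0.642 in primary tumours. The 95% interval for Ikbke ran from -0.48 to 0.48 in primary tumours at 20 Gy, so that differences up to this size lie within the error. For Nfkbia in allografts at 0 Gy the values under anti-PD-1, 129.8 to 154 CPM, all lay above those under isotype, 104.03 to 118.5 CPM.

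Whether the dose difference itself differed between antibodies or between kinds was tested by 4 interaction terms, with Ikbke in the term of the primary tumours alone. No member was called in any of them, where at most 0.00517% of all genes were. Of the 37 values 2 had an unadjusted p below 0.05, a share near that of all genes (1.52% and 4.25% for dose by antibody in allografts and primary tumours, 9.9% and 4.77% for dose by kind with isotype and anti-PD-1). The lowest adjusted p was 0.493, and the log2 values ran from -0.96 to 0.83. The 2 were Rela, whose isotype dose difference was lower by 0.51 ± 0.24 in primary tumours than in allografts, and Tnfaip3, whose anti-PD-1 dose difference was higher by 0.83 ± 0.34. The lowest value, for Tnf, says that the dose difference in primary tumours was -0.96 ± 0.51 with anti-PD-1 relative to isotype (edgeR adjusted p = 0.971). A gene past the threshold in primary tumours and not in allografts, such as Relb or Tnfaip3, is therefore not shown to respond differently between them.

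Without irradiation, Tnf and Tnfaip3 were lower in primary tumours than in allografts. In isotype controls given 0 Gy and harvested on the same day as the irradiated tumours, the log2 difference was -1.52 ± 0.40 for Tnf (edgeR adjusted p = 0.0312) and -0.74 ± 0.19 for Tnfaip3 (adjusted p = 0.0262), and of all genes 3.99% were called lower. For both genes 6 of 8 primary tumours lay below every allograft. Both calls were lost without replicate 1 (adjusted p = 0.0754 and 0.0687) or replicate 3 (0.134 and 0.0855) of the allograft controls. The call of Tnf was also lost without replicate 1, 2 or 8 of the primary controls (0.0507, 0.0519 and 0.0528), and that of Tnfaip3 without replicate 2 of the allograft controls (0.0888). Birc3 stood at -0.35 ± 0.11 with no overlap between the kinds and did not pass (adjusted p = 0.0635). Tnfrsf1b stood at -0.53 ± 0.20 (adjusted p = 0.113), and Ikbke, as a description, at -0.60. Rela, Nfkb1 and Nfkb2 differed by 0.12, 0.24 and 0.15. Among leukocyte markers at baseline, 4 of 9 neutrophil and monocyte markers and 5 of 8 T cell markers were called lower in primary controls, while 1 of 9 macrophage markers was called higher. Of the 4 general leukocyte genes 0 were called by edgeR, and 2 had an unadjusted p below 0.05, as did 26.1% of all genes. Neutrophil and monocyte markers summed to 328 to 605 CPM in allograft controls and 115.9 to 546 CPM in primary controls, T cell markers to 54.8 to 121.9 and 18.7 to 83.6 CPM, macrophage markers to 1715 to 2569 and 1781 to 3565 CPM, and general leukocyte genes to 484 to 992 and 431 to 679 CPM, so that all 4 ranges overlapped. Their part in the difference was not tested.

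Some leukocyte markers were called higher after 20 Gy in the same comparisons as the members. Of the 4 general leukocyte genes (Ptprc, Coro1a, Laptm5 and Cd53), 4 were called higher after 20 Gy with isotype in both kinds and 2 with anti-PD-1 in both kinds. Their summed level ran from 484 to 992 CPM at 0 Gy and from 1262 to 1725 CPM at 20 Gy in isotype allografts, and from 431 to 679 CPM and 718 to 1568 CPM in isotype primary tumours. With anti-PD-1 it ran from 517 to 1192 CPM and 1666 to 2215 CPM in allografts, and from 448 to 741 CPM and 372 to 1804 CPM in primary tumours. Of 9 neutrophil and monocyte markers, 5 and 4 were called higher in primary tumours (isotype and anti-PD-1) and 1 and 2 in allografts. With isotype their median sum was 194 CPM at 0 Gy and 1027 CPM at 20 Gy in primary tumours, and 390 and 1057 CPM in allografts. Of 9 macrophage markers, 4 and 3 were called higher in primary tumours and 2 and 2 in allografts, and with isotype their median sum was 2106 and 3075 CPM in primary tumours and 1948 and 3423 CPM in allografts. Of 8 T cell markers 0 were called by edgeR in any of the 4 dose comparisons, and 1 had an unadjusted p below 0.05, in isotype primary tumours, where 28.8% of all genes did. Of 9 skeletal muscle markers 0 were called by edgeR in any of the 4, but in anti-PD-1 primary tumours their log2 differences were 2.21 to 3.09 and 6 of 9 had an unadjusted p below 0.05, against 23.6% of all genes. Their median sum there was 1232 CPM at 0 Gy and 1775 CPM at 20 Gy, with ranges of 73.8 to 7160 CPM and 13.6 to 69684 CPM. Of 5 B cell markers 1 was called higher, in isotype primary tumours. Of 6 mesenchymal markers 1, Vim, was called lower in primary tumours, at -0.72 ± 0.20 with isotype and -0.76 ± 0.20 with anti-PD-1 (edgeR adjusted p = 0.0124 and 0.0157), and 0 were called in allografts, where 0 and 1 had an unadjusted p below 0.05 (isotype and anti-PD-1). Their median sum in primary tumours was 21872 CPM at 0 Gy and 13751 CPM at 20 Gy with isotype, and 24112 and 13025 CPM with anti-PD-1, with overlapping ranges. No marker of any list was at 0 in every tumour of a group. Of 10 genes of the type I interferon response, 10 were called higher with isotype and 9 with anti-PD-1 in each kind. The part of leukocyte, muscle or mesenchymal content in the members' dose differences was not tested.

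Within groups, the subunit genes varied more with each other than with most other members. Each tumour's log2(CPM + 1) was taken as its deviation from its group's mean, so that differences between group means no longer enter. Spreads were not made equal, so groups with a wide spread weigh more in r. Pearson's r was computed over the 48 tumours as a description, for 2 sets of genes and Nfkbia that were told apart by these same values. These tumours share 1 sequencing project and their libraries differ in depth and cell content. The 6 pairs among the subunits Rela, Nfkb1, Nfkb2 and Relb had r from 0.48 to 0.81, with Rela and Nfkb2 the highest. The 10 pairs among Tnf, Tnfrsf1b, Ikbke, Tnfaip3 and Birc3 had r from 0.35 to 0.71, with Ikbke and Tnf the highest. The 20 pairs across the sets ran from -0.32 to 0.17, and 9 of them were above 0. Nfkbia stood between, at 0.08 to 0.57 with the other 9 genes and highest with Tnfaip3. The ranges were 0.64 to 0.94, 0.18 to 0.76 and -0.44 to 0.44 within allografts and 0.44 to 0.78, 0.34 to 0.77 and -0.43 to 0.19 within primary tumours, in the same order of pairs. In allografts the ranges crossed: Tnf and Tnfrsf1b, of one set, stood at 0.18, and Tnfrsf1b stood at 0.44 and Tnfaip3 at 0.39 with Nfkb1 of the other.

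**Figure D3:**
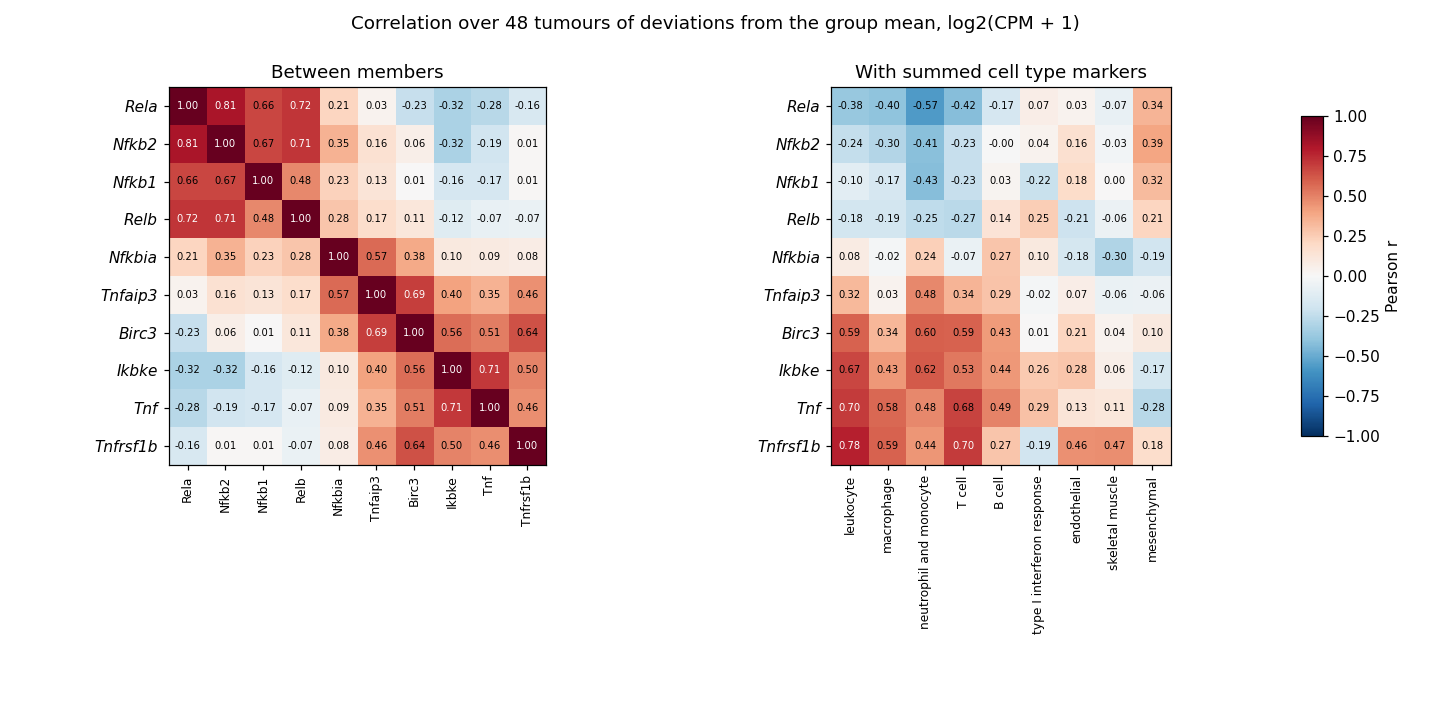
Pearson's r over 48 tumours of deviations from the group mean of log2(CPM + 1), between the members (left) and between each member and the summed markers of 9 lists (right); the colour scale runs from -1 to 1. The 4 subunit genes form one block at 0.48 to 0.81, and Tnf, Tnfrsf1b and Ikbke stand at 0.67 to 0.78 with the leukocyte markers.

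Members of the second set differed in how they varied with leukocyte markers. With the summed leukocyte markers r was 0.78 for Tnfrsf1b, 0.70 for Tnf, 0.67 for Ikbke and 0.59 for Birc3, and -0.38 for Rela. With neutrophil and monocyte markers it was 0.62 for Ikbke, 0.60 for Birc3, 0.48 for Tnf, 0.44 for Tnfrsf1b and -0.57 for Rela. With T cell markers it was 0.70 for Tnfrsf1b, 0.68 for Tnf, 0.59 for Birc3 and 0.53 for Ikbke, and with macrophage markers 0.59, 0.58, 0.34 and 0.43. Tnfaip3 stood at 0.32 with leukocyte, 0.48 with neutrophil and monocyte, 0.34 with T cell and 0.03 with macrophage markers, and Nfkbia at 0.08, 0.24, -0.07 and -0.02. Mesenchymal markers gave 0.39 with Nfkb2, 0.34 with Rela and 0.32 with Nfkb1. Tnfrsf1b also stood at 0.47 with skeletal muscle and 0.46 with endothelial markers, where the other members ran from -0.30 (Nfkbia, muscle) to 0.28 (Ikbke, endothelial).

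The genes most like each member by the same measure were sought among the 11718 genes that averaged 5 CPM or more. For Ikbke they were Aim2 (r = 0.81), a cytosolic DNA sensor, Neurl3 (0.78), Naip5 (0.78), Dennd1c (0.78) and Arrb2 (0.77). For Tnf they were Cd69 (0.81), an early activation marker of lymphocytes, Cd274 (0.79), which encodes PD-L1, Rasgef1b, Il18bp and Slamf8 (0.78 each). For Tnfrsf1b they were Akna (0.88), Fam78a, Cnr2, Itga4 and Psap (0.87 each). Rela was most like Irf2bp1 and Supt5 (0.91 each), and Nfkb2 was most like Rela itself (0.81). Relb was most like Eme2 (0.80), then Rela (0.72) and Nfkb2 (0.71). Nfkb1 was most like Man1a2 (0.86) and Zzz3 (0.84). Tnfaip3 was most like Pim1 (0.76), Stx11 (0.74) and Birc3 (0.69), and Birc3 most like C3 (0.74), Gpr18 and Nlrp3 (0.73 each). Nfkbia had the weakest likeness, to Il1rl1 (0.64), Rnd1 (0.59) and Kctd4 (0.58).

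Beyond the 10 genes, 66 other genes of the pathway were examined in 4 lists. After 20 Gy, 28 of 66 were called higher in primary tumours with isotype and 28 of 66 with anti-PD-1, and 12 and 7 of the 65 tested in allografts. None was called lower in these 4 comparisons. The shares called higher over all genes are given above, and the medians of the 66 genes were 0.57 and 0.53 in primary tumours and 0.40 and 0.41 in allografts.

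Of the 12 other receptors and ligands, 5 and 3 were higher in primary tumours (isotype and anti-PD-1) and 3 and 0 in allografts. Tnfsf14, the ligand LIGHT, differed by 2.54 ± 0.49 and 2.36 ± 0.49 in primary tumours, Cd40 by 2.04 ± 0.43 and 1.35 ± 0.42, and Tnfsf10, the death ligand TRAIL, by 1.64 ± 0.36 and 1.34 ± 0.35. Tnfsf10 was also called in isotype allografts, at 1.47 ± 0.34, with Tnfsf13b at 1.09 ± 0.27 and Tnfrsf11a at 1.18 ± 0.30. The edgeR adjusted p of these calls ran from 0.000768 to 0.0432.

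Of 26 adaptors, ubiquitin enzymes and kinases, 9 and 8 were higher in primary tumours and 3 and 4 in allografts. Rnf31, the catalytic subunit of the linear ubiquitin ligase complex, differed by 0.82 ± 0.10 and 0.69 ± 0.10 in primary tumours (edgeR adjusted p = 9.63e-06 and 0.000231) and by 0.85 ± 0.17 in isotype allografts (adjusted p = 0.0106). Tnip1, which binds A20, differed by 1.05 ± 0.17 and 0.73 ± 0.17 in allografts and by 0.85 ± 0.17 in primary tumours with anti-PD-1. Traf1, an adaptor of TNF receptor 2, differed by 1.13 ± 0.21 and 1.05 ± 0.21 in allografts. Tnip2, another binder of A20, differed by 0.66 ± 0.13 in primary tumours with isotype and 0.62 ± 0.14 in allografts with anti-PD-1. Map3k8 differed by 1.14 ± 0.25 in isotype primary tumours and Ripk1 by 0.31 ± 0.08 in anti-PD-1 primary tumours.

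The Rel and IkappaB family beyond the members (Rel, Nfkbib, Nfkbie, Nfkbid, Nfkbiz and Bcl3) was called higher at 6 of 6 genes in primary tumours with isotype and 4 of 6 with anti-PD-1. In allografts 0 of 6 were called by edgeR with either antibody, although all 6 differences were above 0 and 5 of 6 had an unadjusted p below 0.05 in each comparison, as did 18.2% (isotype) and 19.5% (anti-PD-1) of all genes. Nfkbie, Nfkbid and Nfkbiz, which encode IkappaB proteins, differed by 0.98 ± 0.20, 1.51 ± 0.33 and 1.32 ± 0.29 in isotype primary tumours. With anti-PD-1, Nfkbib differed by 0.60 ± 0.13, Bcl3 by 0.75 ± 0.19 and Nfkbiz by 1.13 ± 0.29.

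Of 22 classical targets, 8 and 13 were higher in primary tumours, and 6 and 3 of the 21 tested in allografts. Icam1, an adhesion molecule for leukocytes, differed by 1.81 ± 0.34 in isotype primary tumours and by 1.59 ± 0.23 and 1.01 ± 0.23 in allografts. Zc3h12a, which encodes the RNase Regnase-1, differed by 0.87 ± 0.17 and 0.86 ± 0.17 in primary tumours and by 0.82 ± 0.17 in anti-PD-1 allografts. Cflar, an inhibitor of caspase 8, was called in allografts at 0.74 ± 0.17 and 0.62 ± 0.16. Ccl2, a monocyte chemokine, was called in anti-PD-1 primary tumours at 2.02 ± 0.43, from a mean of 140 ± 72.9 CPM at 0 Gy to 563 ± 333 CPM at 20 Gy (SD, n = 8 each). Csf2 was called in 3 of the 4 comparisons but had group means of at most 2.13 CPM.

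**Figure D4:**
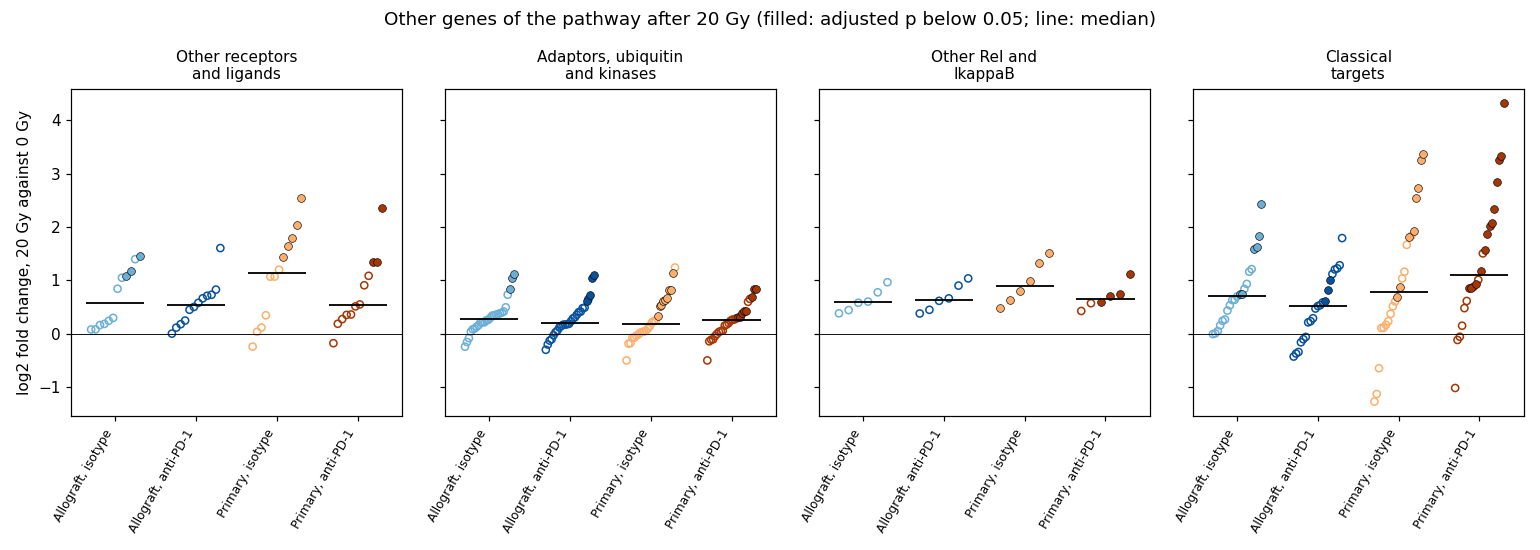
Log2 fold change after 20 Gy against 0 Gy (edgeR) of 66 other genes of the pathway, by list, for each kind and antibody; each point is 1 gene and filled points were called. Filled points lie above 0 throughout, 28 and 28 in primary tumours and 12 and 7 in allografts.

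At baseline, 9 of the 63 of these genes tested were lower and 1 higher in primary tumours than in allografts, where 3.99% of all genes were lower and 6.03% higher. Among the lower were Tnfsf14 (-1.89 ± 0.30), Cd40 (-1.23 ± 0.36), Tnip3 (-1.88 ± 0.36), Nfkbie (-0.93 ± 0.20), Bcl3 (-0.82 ± 0.20), Nfkbid (-1.27 ± 0.36), Ptgs2 (-2.44 ± 0.40), Lif (-1.67 ± 0.49) and Zc3h12a (-0.60 ± 0.18). Csf1, which encodes a growth factor for macrophages, was the 1 higher gene, at 1.01 ± 0.27.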

How the data were processed

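RNA-seq of 48 tumours was analysed from the counts the authors deposited, 1 table with a row per Ensembl gene and unnormalized whole numbers. Per the submitters' processing notes, reads were trimmed with Trimmomatic 0.36 and STAR, HTSeq and the build mm10 (GRCm38) are named. The annotation and the strand setting of counting are not given in the sources used here, so counts of overlapping and antisense genes are uncertain. By its name the table holds a first run. GENCODE M21 named 36796 of 36854 genes and left 58 unnamed, and 0 columns and 0 entries fell outside the listed samples and genes. RefSeq promoters were matched by symbol.

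From the deposited counts, edgeR 4.0.16 in R 4.3.3 (TMM, filterByExpr by group, quasi-likelihood test, Benjamini-Hochberg adjustment, called below 0.05) was fitted to the 16 allografts, the 32 primary tumours, the 12 baseline controls, and all 48 tumours for interactions with kind. An SE is the size of the log2 fold change divided by the square root of F, and a 95% interval is 1.96 SE either way. Alternatives were DESeq2 1.42.0, its size factors, no filter on low counts, an identifier covariate, other samples in the fit and leaving out each tumour. Groups were taken from the labels. Replicates were numbered in accession order, a number that only names a tumour. The labels name separate animals by identifier, and p-values measure the spread between these tumours. Totals of 31.8 to 54.0 M counts keep counting error small beside that spread for most members, and reads carry no molecular identifiers.

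The members, the 4 pathway lists and the marker lists were chosen with earlier results of these data known. The text names all 10 members and, of each list and comparison, up to 3 called genes of lowest p in each direction. Csf2 was also named after its values were seen.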

Additional observations from a re-analysis of the deposited data

Results flagged for a closer look

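Within-group outliers were sought for each member in each group, with a gap to the nearest tumour judged against Dixon's critical value. Of 80 groups tested, 2 held such a tumour, where chance gives about 1 in 20. Nfkb2 stood at 219 CPM in replicate 2 of the primary 0 Gy isotype group, where the other 7 tumours ranged from 66.8 to 129 CPM. Without that tumour Nfkb2 was called higher in primary tumours given both treatments than in controls (0.55, edgeR adjusted p = 0.0231), where it was not called with it. Tnfaip3 stood at 105.8 CPM in replicate 6 of the primary 20 Gy anti-PD-1 group, where the other 7 ranged from 27.3 to 59.9 CPM, and its dose call did not depend on that tumour.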

How the results depend on the processing

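No paired analysis was made, because the labels name tumours by separate animal identifiers and state no pairs. The 29 called values (a member in a comparison, without those given as a description) were refitted 983 times. They kept sign and call in 934 fits, lost the call in 49 and changed sign in none. Dose calls were lost for Tnf (11 of 22 fits), Tnfrsf1b (8) and Birc3 (7) in isotype allografts. In anti-PD-1 allografts they were lost for Birc3 (8 of 22) and Nfkbia (4). At baseline, calls were lost for Tnf (5 of 16) and Tnfaip3 (3), and in primary tumours for Tnf after 20 Gy with anti-PD-1 (3 of 39). The values not called were refitted 2685 times. They gained a call in 11 fits and changed sign in 169.

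Where allografts enter, counts are of the 9 genes other than Ikbke. In isotype allografts the dose count of 4 became 1 with the identifier covariate, 2 in a fit of all 48 tumours and 1 to 6 when 1 tumour was left out. In anti-PD-1 allografts the count of 2 became 4 by DESeq2, 0 with the 2 groups alone, 0 with all 48 tumours and 0 to 3 when 1 tumour was left out. The baseline count of 2 ran from 0 to 3 in the same way. The cause was not tested. The identifier covariate could not be fitted at baseline, where it coincides with kind. Other counts of called members stayed within 1.5 times the main count, at 7 to 7 and 6 to 7 for dose in primary tumours with isotype and anti-PD-1, and 7 to 8 for primary tumours given both treatments, when 1 tumour was left out.

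Counts over all genes moved as well. Over the alternatives, dose calls ran from 196 to 1458 (main 912) and 1 to 1552 (main 703) in allografts with isotype and anti-PD-1, and from 1706 to 3532 (main 2575) and 822 to 2265 (main 1407) in primary tumours. For both treatments they ran from 1384 to 3636 (main 2446) in primary tumours, and at baseline from 732 to 2991 (main 1738).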
